A study of Mus musculus with 22 samples.

Results

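The genes described here are 10 neutrophil granule and myeloid priming genes, chosen by symbol from the 55416 gene identifiers of the count files: Prtn3, Mpo, Elane and Ctsg, which encode granule proteins made early in neutrophil development, and S100a8, S100a9, Ngp, Camp, Ltf and Lcn2, which are made late. The rule used symbols and no measured value, but the members were chosen with earlier results of these data known. Of the 10, 8 passed the filter on low counts and were among the 17366 genes tested; Ltf and Lcn2 did not pass. The RNA came from mouse bone marrow haematopoietic stem cells (HSCs), sorted as Lin-Sca1+Kit+CD150+CD48- and divided by surface leptin receptor (LEPR) into LEPR+ and LEPR- fractions. There were 4 groups: young mice of 2 to 3 months (4 LEPR+ and 4 LEPR- libraries from mice 1 to 4) and middle-aged ("midage") mice of 12 to 15 months (7 LEPR+ and 7 LEPR- libraries from mice 5 to 11). The young mice were 2 males and 2 females, the midage mice 2 males and 5 females, and the labels name no strain, treatment or engineered allele. Each mouse gave 1 library of each fraction, from flushed leg-bone marrow after magnetic lineage depletion. The study set LEPR+ against LEPR- cells within each age, and midage against young within each fraction.

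Neutrophils store antimicrobial proteins in granules that form in a fixed order. Promyelocytes fill the primary (azurophil) granules with myeloperoxidase and the serine proteases, and myelocytes and metamyelocytes later fill the secondary and tertiary granules, so the genes of each granule type are transcribed at separate stages. Multipotent cells can carry low levels of early granule transcripts before any commitment, which is called myeloid priming, while late granule transcripts belong to maturing neutrophils.

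Promoter sequences of 4 of the genes are shown because they place an early pair and a late pair side by side. Each is the strand of the gene, 5′ to 3′, in the window before the RefSeq start site and ending at the last base before the GENCODE exon there, from the RefSeq promoter table (GRCm38.p6) located on GRCm39 by exact match. Capitals mark matches on either strand to GAGGAA, the core of the PU.1 site, to TTNNGNAA, the half-palindromic form of the C/EBP site, and to TGTGGT, the RUNX core; the motifs do not contain each other. All 10 genes matched the table. Prtn3 is at chr10:79715251-79715447 (+ strand), Elane at chr10:79721896-79722080 (+), S100a9 at chr3:90603072-90603278 (-) and Ngp at chr9:110248626-110248814 (+). The Prtn3 stretch lies within an intron of a longer GENCODE model that starts at base 79710310; the other 3 lie outside their annotated genes.
Prtn3: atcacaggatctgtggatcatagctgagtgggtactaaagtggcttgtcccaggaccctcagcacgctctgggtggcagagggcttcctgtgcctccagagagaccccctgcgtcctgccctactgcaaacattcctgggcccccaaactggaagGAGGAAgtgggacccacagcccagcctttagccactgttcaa
Elane: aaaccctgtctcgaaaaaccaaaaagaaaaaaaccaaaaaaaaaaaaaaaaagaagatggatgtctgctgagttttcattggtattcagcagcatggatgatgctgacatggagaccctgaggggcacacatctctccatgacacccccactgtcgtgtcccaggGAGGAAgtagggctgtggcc
S100a9: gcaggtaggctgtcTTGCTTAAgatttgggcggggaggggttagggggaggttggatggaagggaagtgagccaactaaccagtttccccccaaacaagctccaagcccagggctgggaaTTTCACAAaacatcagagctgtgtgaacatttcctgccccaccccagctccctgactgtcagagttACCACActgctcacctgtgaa
Ngp: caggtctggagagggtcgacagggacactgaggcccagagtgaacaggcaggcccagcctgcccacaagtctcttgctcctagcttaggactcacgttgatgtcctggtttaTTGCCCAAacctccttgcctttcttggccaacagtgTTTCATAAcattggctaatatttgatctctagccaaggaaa

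In the full 250 bases before the start site, the PU.1 core was present in 4 of 4 early genes and 3 of 6 late genes, against 23.4% of 32536 promoter windows of the same length. The C/EBP form was in 0 of 4 early genes and in 5 of 6 late genes (Camp had none), against 36.8% of the windows. The RUNX core was in 1 of 4 early and 1 of 6 late genes, against 14% of the windows. A match describes the letters only and shows no binding.

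Prtn3 and Elane are neighbours on chromosome 10, separated by 3072 bases, and S100a8 and S100a9 are neighbours on chromosome 3, separated by 21802 bases. Camp and Ngp both lie on chromosome 9 but 570129 bases apart. The annotated Prtn3 gene (ENSMUSG00000057729.13, chr10:79710310-79719008, +) overlaps Plppr3 on the opposite strand by 197 bases. Mpo (ENSMUSG00000009350.14, chr11:87684407-87695239, +) spans the antisense Gm11505, which had no count in any library. Whether counting used strand is not given in the sources used here, so reads from the shared Prtn3 and Plppr3 bases may not be told apart. Plppr3 ranged from 0 to 145 CPM (counts per 1000000 gene counts after TMM scaling).

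Gene counts per library ran from 10325587 to 61697039, and levels are given as TMM-scaled CPM of gene counts. A count of 0 allows up to 3 counts, which was 0.0486 to 0.291 CPM depending on the library. These limits cover counting error only, since the reads carry no molecular identifiers. Genes detected ran from 12424 to 15406 in young libraries and from 14000 to 24523 in midage libraries. The transcript of the sort antigen, Lepr, did not follow the sort. It had 1 count in all 4 young LEPR+ libraries and 1 in all 4 young LEPR- libraries, and averaged 1.73 ± 3.69 CPM in midage LEPR+ and 0.852 ± 2 CPM in midage LEPR- libraries (SD, n = 7 each). HSC marker genes were uneven, and each of the 8 named here had its lowest value in a young LEPR- library. Kit, the stem cell factor receptor of the sort, ran from 229 to 1253 CPM, Hlf, an HSC transcription factor, from 65.1 to 538 CPM, and Procr, which encodes the surface receptor EPCR, from 60.3 to 183 CPM. Mecom was at 1.62 CPM in 1 young LEPR- library. Slamf1, which encodes the sort antigen CD150, and Ctnnal1 had no count in the young LEPR- library of mouse 2, Hoxb5 had none in that of mouse 3 and Fgd5 none in that of mouse 4. In sorted bulk RNA, fewer cells carrying a transcript and less of it per cell cannot be told apart.

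**Figure D1:**
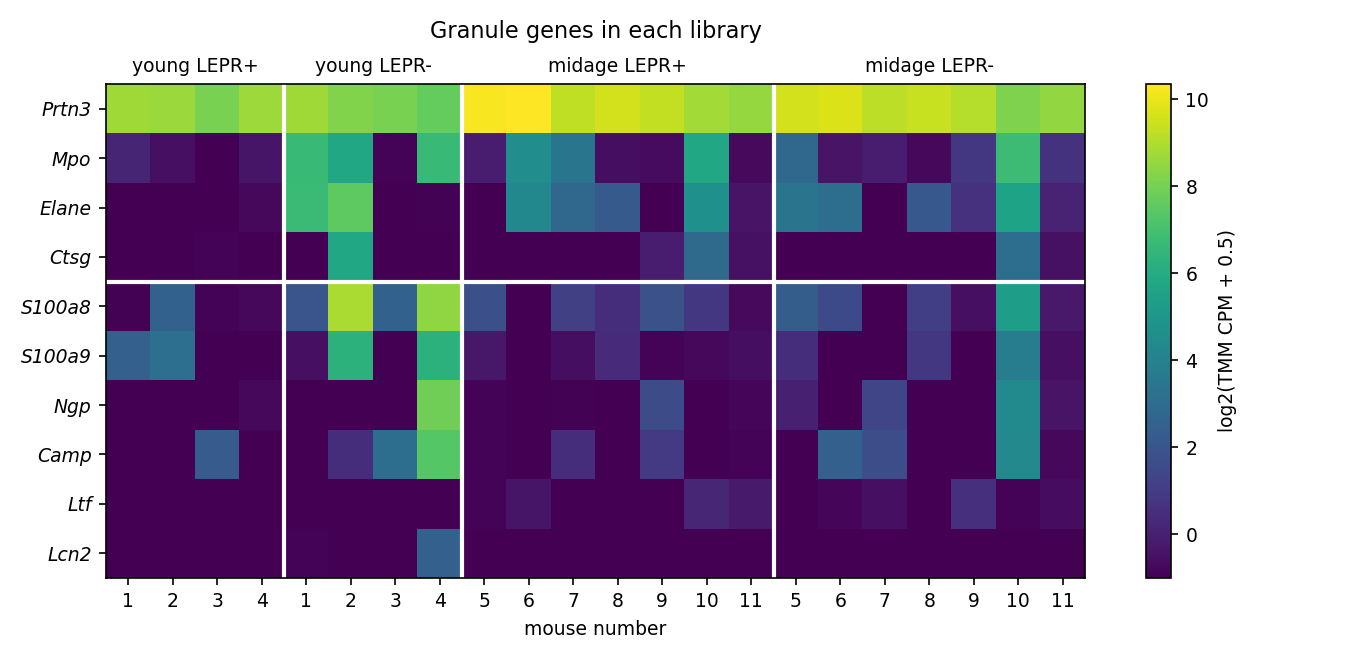
Level of each granule gene (rows, early genes above the white line) in each library (columns, by group and mouse number), coloured by log2(TMM CPM + 0.5). Prtn3 is high in all 22 libraries, and the other 9 genes are near the floor except in a few libraries, chiefly LEPR- libraries of mice 1, 2, 4 and 10.

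Prtn3, which encodes proteinase 3, was the early granule gene that every library carried. In young LEPR+ cells it stood at 421, 399, 268 and 418 CPM in mice 1 to 4, and in young LEPR- cells at 420, 293, 268 and 203 CPM. In midage LEPR+ cells the lowest, median and highest values were 379, 639 and 1307 CPM, and in midage LEPR- cells they were 283, 590 and 853 CPM. The 4 groups overlapped, with both midage libraries of mouse 11 and the LEPR- library of mouse 10 inside the range of the young ones. Ranked by level within a library, Prtn3 lay between rank 83 and rank 1226.

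Group means of Prtn3 were 377 ± 72.8 CPM in young LEPR+ and 296 ± 90.7 in young LEPR- libraries (SD, n = 4 each). The midage means were 767 ± 365 and 582 ± 205 CPM (SD, n = 7 each). Midage exceeded young by 1.02 on the log2 scale in LEPR+ cells (SE 0.34, edgeR adjusted p = 0.149) and by 0.98 in LEPR- cells (SE 0.34, edgeR adjusted p = 0.0879). Neither passed the threshold of 0.05, and the same test of all genes had a median shift towards midage of 0.25 and 0.33, respectively. With both libraries of a mouse summed, an analysis added after the values were seen, young mice averaged 327 ± 72 CPM (n = 4) and midage mice 655 ± 239 CPM (n = 7). The difference was 1.00 on the log2 scale (SE 0.30, edgeR adjusted p = 0.0819), and a 2-sided exact permutation test over the 330 regroupings of mice for this gene alone gave p = 0.0212. DESeq2 called Prtn3 in both fractions (adjusted p = 0.0145 in LEPR+ and 0.00877 in LEPR- cells). limma-voom did not, and its differences of 0.79 in LEPR+ and 0.90 in LEPR- cells stood beside medians of all genes of 0.72 and 1.54.

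Within each mouse, Prtn3 was higher in the LEPR+ library than in the LEPR- library in 11 of 11 mice. The ratio was 1.00, 1.36, 1.00 and 2.05 in young mice 1 to 4. In midage mice 5 to 11 it was 1.60, 1.53, 1.05, 1.14, 1.16, 1.54 and 1.03. The ratios were smallest in mice 1 and 3, where the libraries differed by less than 1%, and largest in mouse 4. The mean log2 ratio was 0.36 ± 0.35 (SD, n = 11 mice), a 1.28-fold difference. A 2-sided exact sign-flip permutation test of this gene gave p = 0.000977, the smallest that 11 pairs allow. The count was 11 of 11 under TMM, RLE and plain CPM scaling. This pattern was noticed in these data and then tested on them. Across all 17366 genes, 8 (0.0461%) were higher in the LEPR+ library of every mouse. That share is close to the one that 11 even coin flips, all falling on 1 side named beforehand, would give. The count of 11 of 11 for 1 gene among so many is therefore not distinguished from chance. In the edgeR fit of the mean of both ages, the LEPR difference of Prtn3 was 0.37 (SE 0.23, adjusted p = 0.632), and with mouse as a block it was 0.36 (SE 0.11, adjusted p = 0.341). That comparison had 0.276% of genes called without the block and 0.0691% with it, and no member called by either.

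**Figure D2:**
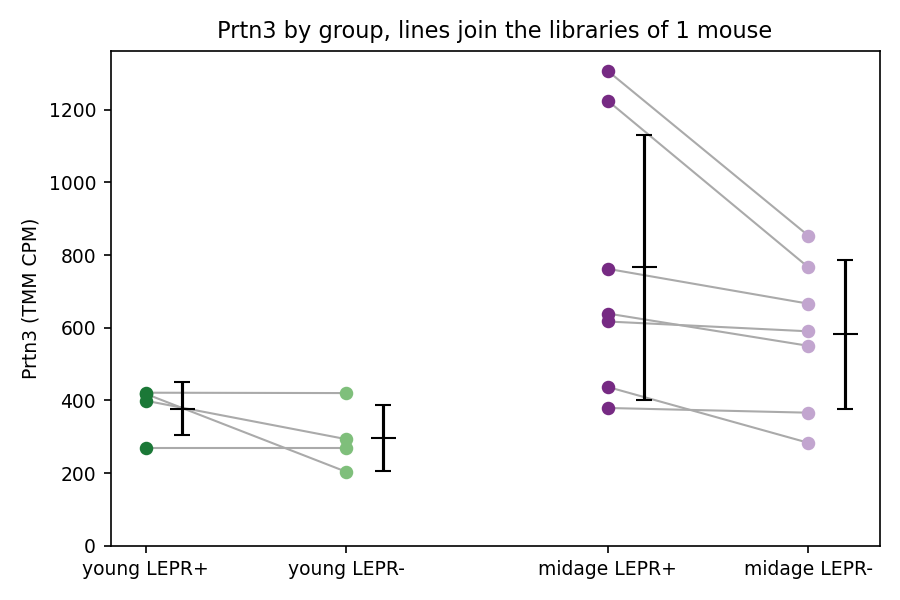
Prtn3 level (TMM CPM, linear axis from 0) in each library, with lines joining the LEPR+ and LEPR- libraries of 1 mouse and black bars giving group mean ± SD. All 11 lines fall from LEPR+ to LEPR-, although 2 young lines are nearly flat, and midage libraries reach 1307 CPM where young ones stop at 421.

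Mpo, which encodes myeloperoxidase, was nearly silent in young LEPR+ cells and high in most young LEPR- libraries. In young LEPR+ libraries it was at 0.629, 0.201, 0 and 0.274 CPM for mice 1 to 4, and in young LEPR- libraries at 99.5, 55.6, 0.036 and 99.4 CPM. In midage LEPR+ libraries the lowest, median and highest were 0.106, 0.404 and 55.7 CPM, and in midage LEPR- libraries 0.101, 1.09 and 110 CPM. The LEPR- library was above its LEPR+ partner in 4 of 4 young mice and 4 of 7 midage mice, but the LEPR- library of mouse 3, at 1 count, kept the young groups overlapping. In mouse 3 this was 1 count against 0, which the counting limit given above does not tell apart. The edgeR difference, LEPR+ against LEPR-, was -7.83 on the log2 scale in young cells (SE 2.80, adjusted p = 0.168) and -0.42 in midage cells (SE 1.57, adjusted p = 1). The difference between these effects was 7.41 (SE 2.99, edgeR adjusted p = 0.269). With age, Mpo differed by 5.52 in LEPR+ cells (SE 2.46, edgeR adjusted p = 0.216) and by -1.89 in LEPR- cells (SE 1.79, edgeR adjusted p = 0.558).

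Elane, which encodes neutrophil elastase, was found in fewer libraries. In young LEPR+ cells it had 0 counts in mice 1 to 3 and 1 count in mouse 4; in young LEPR- cells it was at 107, 186, 0 and 0.0312 CPM. Midage libraries ranged from 0 through a median of 4.11 to 25.5 CPM in LEPR+ cells, and from 0 through 3.91 to 47.9 CPM in LEPR- cells. Elane and Mpo were both high in young LEPR- libraries of mice 1 and 2, but mouse 4 had Mpo at 99.4 CPM with 1 count of Elane. Over the 4 libraries of each group, Elane counts were 6756-fold higher in young LEPR- than young LEPR+ cells relative to scaled library size (95% exact counting interval 1212 to 266885), resting on 1 count in the LEPR+ group and on 2 mice. The interval covers counting error only, not the spread between mice, and 1 count is below the limit of 3 counts that a 0 allows. The edgeR log2 difference, LEPR+ against LEPR-, was -12.07 (SE 3.61, adjusted p = 0.126).

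Ctsg, which encodes cathepsin G, was at 1 CPM or more in 3 libraries, and those held 97.2% of its 1688 counts. They were the young LEPR- library of mouse 2, at 56 CPM, and both libraries of mouse 10, at 7.21 CPM (LEPR+) and 7.98 CPM (LEPR-). The other 7 young libraries had 1 count between them, so young LEPR- cells differed from young LEPR+ cells by 1 library; without it the edgeR log2 difference, fitted against that 1 count, changed from -10.03 to 1.82. In 15 of 22 libraries Ctsg was at 0.

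Levels of single early genes were compared per kilobase of exon, whereas the sums of genes given below are in CPM without this correction. On that scale Prtn3 was the highest early gene in every group, at 217, 171, 443 and 336 CPM per kb in young LEPR+, young LEPR-, midage LEPR+ and midage LEPR- cells. Elane was at 0.0231, 74.3, 8.06 and 10.3 CPM per kb in the same order. Mpo was at 0.0805, 18.6, 3.74 and 5.01. The standard deviations of Elane and Mpo equalled or exceeded their means in most groups, so their order relative to each other is not distinguished from the spread between libraries.

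S100a8 and S100a9 encode proteins that pair as calprotectin in the cytosol of neutrophils and monocytes. S100a8 had the most counts of the late genes, and S100a9 had fewer than Ngp or Camp (5148 against 8412 and 6664 over all libraries). S100a8 was at 0.0314, 5.24, 0.0355 and 0.0913 CPM in young LEPR+ cells and at 3.48, 476, 5.19 and 358 CPM in young LEPR- cells. In midage cells the lowest, median and highest were 0, 1.3 and 3.01 CPM (LEPR+) and 0, 1.64 and 39 CPM (LEPR-). Mice 2 and 4 carried the high young values and mouse 10 the high midage one, and the LEPR- library was above its partner in 4 of 4 young mice. The LEPR difference was -7.26 in young cells (SE 2.42, edgeR adjusted p = 0.159) and -2.26 in midage cells (SE 1.46, adjusted p = 1). Between ages, S100a8 in LEPR- cells differed by -4.94 (SE 1.71, edgeR adjusted p = 0.0871), and without the midage LEPR- library of mouse 10 by -7.10 (adjusted p = 0.0454).

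Among LEPR- libraries S100a9 was high in those where S100a8 was high. In young LEPR- cells it was at 0.193, 78.6, 0 and 79.1 CPM, high again in mice 2 and 4, and in midage LEPR- cells at 0, 0.182 and 13.3 CPM (lowest, median, highest). Young LEPR+ cells held 5.03 CPM in mouse 1 and 8.43 CPM in mouse 2, and 0 in mice 3 and 4. In mouse 1, S100a9 had 160 counts beside 1 count of S100a8, so the pair was not always found together. The edgeR LEPR difference was -3.55 in young cells (SE 2.48, adjusted p = 0.655).

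Ngp, encoding neutrophilic granule protein, and Camp, encoding the cathelicidin CRAMP, are secondary granule genes. Ngp had 234 CPM in the young LEPR- library of mouse 4 and at most 1 count in each of the other 7 young libraries. Its midage maximum was 21.1 CPM, in the LEPR- library of mouse 10, and the next were 2.55 CPM (LEPR+, mouse 9) and 2.07 CPM (LEPR-, mouse 7). The top 3 libraries held 98.6% of its counts. Camp was at 0, 0, 4.26 and 0 CPM in young LEPR+ cells and at 0, 0.882, 8.03 and 164 CPM in young LEPR- cells, with a midage maximum of 20.1 CPM in the LEPR- library of mouse 10. For both genes the young LEPR- group exceeded the young LEPR+ group through 1 or 2 libraries. Midage LEPR- Camp was also at 5.13 CPM in mouse 6 and 2.76 CPM in mouse 7, above the midage LEPR+ maximum of 1.43 CPM. The LEPR- library had more Camp than its partner in 4 of 7 midage mice and less in 2. The edgeR adjusted p of the young LEPR contrast was 0.169 for Ngp and 0.474 for Camp, and without the LEPR- library of mouse 4 the Ngp difference changed from -11.67 to 2.34.

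Ltf, encoding lactoferrin, and Lcn2, encoding the siderophore-binding lipocalin 2, were all but absent. Ltf had 68 counts in all 22 libraries, none in the 8 young ones, and never reached 1 CPM. Lcn2 had 165 counts, of which 163 (5.09 CPM) were in the young LEPR- library of mouse 4. Summed over young LEPR- cells, Lcn2 was at least 51.9-fold higher than in young LEPR+ cells, against a floor of 3 counts over the group, on that single library.

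Summed over the 4 early genes, a library held 268 to 1349 CPM, of which Prtn3 was the larger part in every library except the young LEPR- library of mouse 2 (293 of 591 CPM). Without Prtn3 the early sum was at most 0.629 CPM in young LEPR+ cells, and was 206, 298, 0.036 and 99.5 CPM in young LEPR- mice 1 to 4. The 6 late genes summed to 0.183 to 13.7 CPM in young LEPR+ cells and to 3.7, 556, 13.2 and 840 CPM in young LEPR- cells. Midage late sums ran from 0.284 to 7.05 CPM in LEPR+ cells, and from 1.03 to 93.5 CPM in LEPR- cells. In CPM, early genes exceeded late genes in all but 1 library, the young LEPR- library of mouse 4, where the log2 ratio of late to early was 1.47. The order in the young LEPR- library of mouse 2 depended on exon length. Per kilobase of exon, S100a8 was at 483 CPM there, beside Prtn3 at 169, Elane at 189, Ctsg at 54.2 and Mpo at 16.2. Mean log2 ratios of late to early were -6.53 ± 1.91 in young LEPR+, -2.53 ± 3.96 in young LEPR-, -8.20 ± 1.32 in midage LEPR+ and -6.66 ± 2.04 in midage LEPR- libraries (SD; n = 4, 4, 7 and 7, pseudocount 0.5 CPM). Because Prtn3 sets most of the early sum, these ratios mostly compare late genes with Prtn3. Without Prtn3 the mean ratios were 2.36 ± 1.99, 0.76 ± 4.52, -1.32 ± 3.33 and -0.22 ± 1.31 in the same order. The means were thus above 0 in both young groups, but the SD of young LEPR- libraries exceeded their mean. In young LEPR+ libraries the early sum without Prtn3, at most 0.629 CPM, was near the pseudocount, which therefore weighs on the ratio. In CPM, without correction for exon length, late genes exceeded Mpo, Elane and Ctsg in 3 of 4 young LEPR+, 3 of 4 young LEPR-, 3 of 7 midage LEPR+ and 1 of 7 midage LEPR- libraries.

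**Figure D3:**
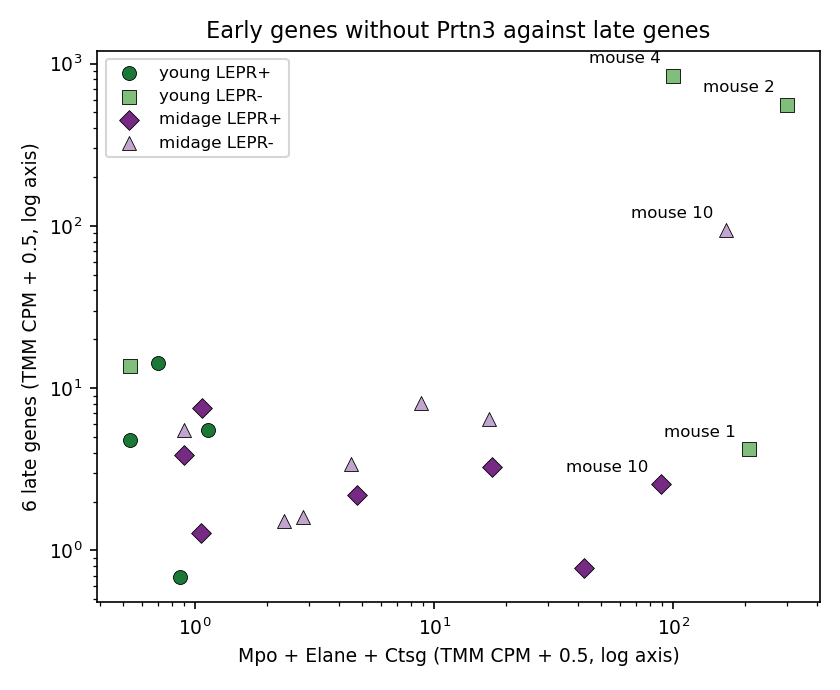
Summed Mpo, Elane and Ctsg (horizontal) against the summed 6 late genes (vertical), both as TMM CPM + 0.5 on log axes, 1 symbol per library. The LEPR- libraries of mice 2, 4 and 10 are high on both axes, while the LEPR- library of mouse 1 and the LEPR+ libraries of mice 6 and 10 are high for early genes only.

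The early and late genes therefore came in different mixtures. The young LEPR- library of mouse 1 had Mpo and Elane with 3.7 CPM of late genes. That of mouse 2 had Mpo, Elane, Ctsg, S100a8 and S100a9 without a count of Ngp. That of mouse 4 had Mpo and every late gene except Ltf, with 1 count of Elane and 0 of Ctsg. In mouse 10, the LEPR- library held all members except Ltf and Lcn2 at 1 CPM or more (8 of 10), while its LEPR+ partner held the 4 early genes with 1.3 CPM of S100a8 and no other late gene at 1 CPM. The midage LEPR+ library of mouse 6 had 42 CPM of Mpo and Elane with 0.284 CPM of late genes, the lowest log2 ratio without Prtn3 of any library (-5.76). Mice 2 and 4 had LEPR+ partners with 0.201 and 0.274 CPM of Mpo.

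Markers of other cells were also unequal in these libraries. The 13 eosinophil, basophil and mast cell genes summed to 1436 CPM in the young LEPR- library of mouse 4, chiefly Prg2, the eosinophil major basic protein, at 1180 CPM, with Epx at 106 and Prg3 at 85.6 CPM. In the young LEPR- libraries of mice 1, 2 and 3 that sum was 152, 7.06 and 11.1 CPM, and in the other groups it ran from 7.85 to 184 CPM. Of the 13 genes, 5 had no count in any young LEPR- library, 4 in young LEPR+, and 1 in each midage group. The 12 monocyte and macrophage genes summed to 158, 162, 33.3 and 30.7 CPM in young LEPR- mice 1 to 4 and to between 0.284 and 126 CPM in the other groups. The 6 megakaryocyte and platelet genes summed higher in the LEPR- than the LEPR+ library in 4 of 4 young mice (427 to 1306 against 254 to 483 CPM) and 6 of 7 midage mice (411 to 878 against 245 to 586 CPM), and each gene had counts in every group. Pf4, platelet factor 4, was called lower in LEPR+ cells in the mean of both ages (-1.45, SE 0.31, edgeR adjusted p = 0.0484). It differed most, averaging 194 CPM in LEPR+ against 486 in LEPR- young cells, and 77.5 against 230 in midage cells. Mean Itga2b and Vwf were also higher in LEPR- cells at both ages. Mean Ppbp was higher in LEPR+ cells at both ages (53.7 against 38.4 and 14.8 against 12.2 CPM), and mean Gp9 in midage LEPR+ cells (55.5 against 48.4 CPM). The T and NK cell list, which shares Nkg7 with the primary-granule list, summed higher in the LEPR- library in 4 of 4 young and 6 of 7 midage mice. Of its 8 genes, 5 had a count in any library, and of those 4 had none in young LEPR+ and 3 none in young LEPR- cells, so that Nkg7 made up nearly the whole sum there. Not every list leaned towards LEPR- libraries. The 33 other secondary, tertiary and mature neutrophil genes summed to between 541 and 991 CPM in all libraries. That sum was higher in the LEPR- library in 2 of 4 young and 2 of 7 midage mice. Of the 33 genes, 20 had no count in young LEPR+ and 12 none in young LEPR- cells. Lyz2 (group means of 388 to 445 CPM) and Anxa1 (167 to 208 CPM) made up much of the sum. It therefore says little about the less abundant genes, which went both ways in young cells. Mean Chil3 was 0 CPM in young LEPR+ and 50.3 CPM in young LEPR- cells (highest library 201 CPM). Mean Lrg1 was 87.4 CPM in young LEPR+ and 0.0525 CPM in young LEPR- cells. The part of other cell types in the granule transcripts was not tested.

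None of the 8 tested members passed an adjusted p of 0.05 in any edgeR comparison. In LEPR+ against LEPR- young cells, 0 of 8 were called where 0.599% of all genes were. The background was 0% in midage cells, 0.173% for midage against young in LEPR+ cells, 3.84% for midage against young in LEPR- cells and 0.236% for the difference of the LEPR effect between ages. It was 1.82% for the comparison with libraries summed per mouse, in which 0 of 8 members were called. At an unadjusted p under 0.05, 5 of 8 members were lower in young LEPR+ cells (Mpo, Elane, Ctsg, S100a8 and Ngp), where 16.1% of all genes had such a p. The number was 0 of 8 in midage cells (background 0.875%), 3 of 8 higher with age in LEPR+ cells (Prtn3, Mpo and Elane; 19.7%), 2 of 8 with age in LEPR- cells (Prtn3 higher, S100a8 lower; 28%), and 3 of 8 for the difference of effects (Mpo, Elane and Ctsg; 12.8%).

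DESeq2 called more genes throughout. It called 3 of 8 members in young cells, all lower in LEPR+ (Mpo, Elane and S100a8), where 11.2% of genes were called, and 0 in midage cells (0.00576%). With age it called 3 in LEPR+ cells (Prtn3, Mpo and Elane, higher; 10.8%) and 2 in LEPR- cells (Prtn3 higher and S100a8 lower; 20.2%). For the difference of effects it called Mpo and Elane (8.18%). DESeq2 gave no p for Ctsg and Ngp. limma-voom called 0 members in each of the 5, against 0.818%, 0.00576%, 4.07%, 14.8% and 0.369% of genes in the same order. With mouse as a replicate block edgeR called 0 members for young cells (0.144%), midage cells (0.00576%) and the difference (0.0403%).

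The groups of no tested member were fully separated. In the young LEPR comparison 0 of 8 members had groups without overlap, where 2.05% of genes did. The share was 0.00576% in midage cells, 3.04% for age in LEPR+ cells and 5.06% for age in LEPR- cells, again with 0 of 8 members. The age comparisons share mice but no libraries, and each LEPR comparison shares its libraries with both age comparisons.

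**Figure D4:**
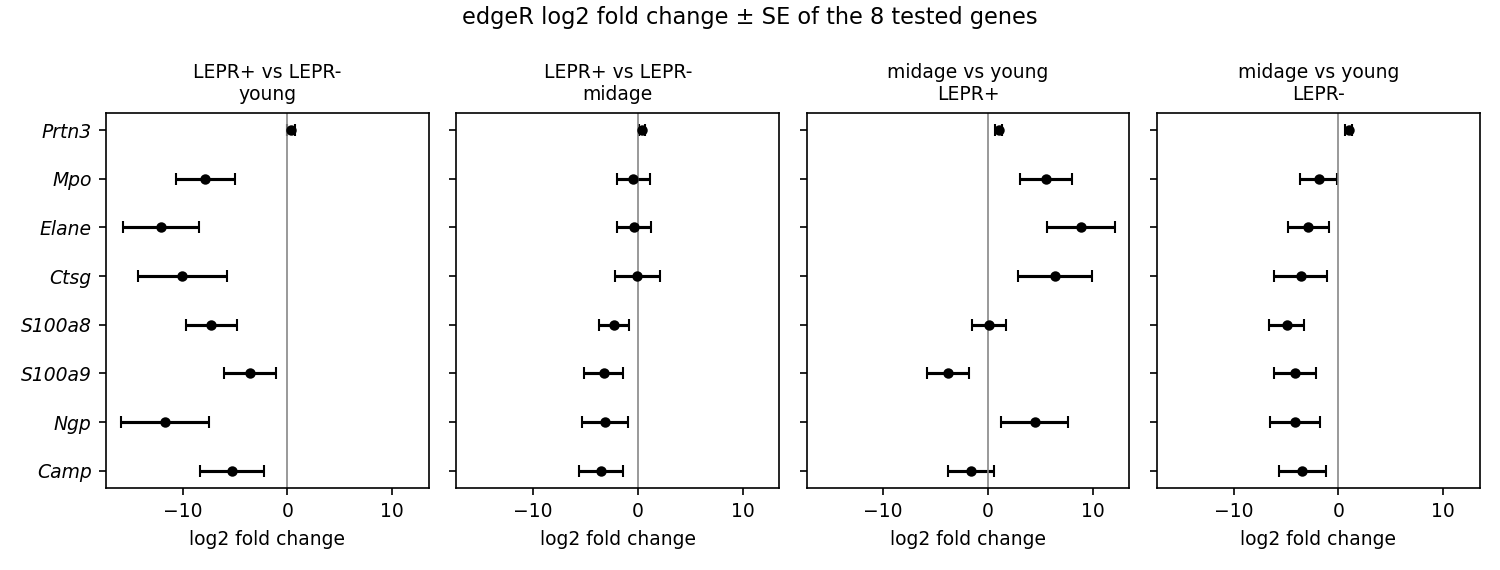
edgeR log2 fold change ± SE of the 8 tested genes in the 4 comparisons (1 panel each; a positive value is higher in the first-named group). Prtn3 has the smallest SE in each panel, and the others have SEs of 1.46 to 4.23. None of the 8 genes, Prtn3 included, passed an adjusted p of 0.05.

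Other genes of the neutrophil programme did not pass the test either. Of 15 other primary-granule and promyelocyte genes, 14 were tested and 0 were called in any of the 5 comparisons. Of 33 other secondary, tertiary and mature neutrophil genes, 14 were tested with 0 called. The 13 myeloid transcription factors and the 13 myeloid cytokine and Fc receptors had 12 tested each and 0 called. At an unadjusted p under 0.05 in young LEPR+ against LEPR- cells, where 16.1% of all genes had such a p, the primary-granule list had 3 of 14 lower (Cst7, Nkg7 and Hdc) and none higher. The secondary, tertiary and mature list had 2 higher (Lrg1 and Ncf1) and 2 lower (Slpi and Trem3) of 14, the receptors 2 higher (Csf1r and Fcgr2b) of 12, and the transcription factors 0 of 12.

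The 2 most abundant genes of each list followed different patterns. Srgn, the proteoglycan that packs granule proteases, averaged 1612 ± 231, 1706 ± 354, 1233 ± 473 and 1257 ± 545 CPM in young LEPR+, young LEPR-, midage LEPR+ and midage LEPR- libraries. Lyz2, encoding lysozyme, averaged 409 ± 104, 445 ± 119, 408 ± 91.8 and 388 ± 92 CPM. Cd63, a granule membrane tetraspanin, averaged 1011 ± 91.8, 1049 ± 102, 970 ± 277 and 892 ± 294 CPM. Anxa1, encoding annexin A1, averaged 208 ± 61.5, 192 ± 44.7, 197 ± 38.3 and 167 ± 26.3 CPM. None of these 4 genes had an edgeR adjusted p below 0.363 in the 4 group comparisons. Runx1, a transcription factor of HSCs and myeloid cells, averaged 97 ± 7.53 and 114 ± 75.3 CPM in young LEPR+ and LEPR- cells, and 213 ± 54.9 and 216 ± 53.1 CPM in midage cells. Its log2 difference with age was 1.14 (SE 0.33, edgeR adjusted p = 0.118) in LEPR+ and 0.92 (SE 0.32, edgeR adjusted p = 0.0873) in LEPR- cells. Myb, a transcription factor of progenitors, averaged 68.3 ± 62.7, 123 ± 54.5, 126 ± 72.3 and 129 ± 62.7 CPM in the order used above, with adjusted p of 0.431 or more. Cd34, a surface protein of progenitors, averaged 402 ± 144, 286 ± 144, 161 ± 73.5 and 222 ± 64.3 CPM. It differed with age by -1.32 in LEPR+ cells (SE 0.35, edgeR adjusted p = 0.101) and by -0.37 in LEPR- cells (SE 0.35, edgeR adjusted p = 0.562). Csf3r, the receptor for granulocyte colony-stimulating factor, averaged 23.4 ± 32.8, 18.8 ± 34.4, 86.5 ± 61.7 and 81.8 ± 59 CPM in that order, where the smallest edgeR adjusted p of the 4 comparisons was 0.469.

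Over the 22 libraries, the 5 genes outside the list whose levels ranked most like the summed early genes, among 13943 with a mean of at least 1 CPM, were Atp2a3 (Spearman rho 0.88), Fam234b (0.84), Rbm19 (0.82), Gpr183 (0.81) and Fhl1 (0.81). Because Prtn3 dominates the early sum, these are in effect the genes most like Prtn3. For the summed late genes they were Ubr7 (0.73), Mrps23 (0.72), Cacfd1 (0.70), Cd52 (0.69) and Cyb5b (0.67). The libraries share mice and age groups, so these values describe the set of libraries only.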

How the data were processed

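Bulk poly(A) RNA-seq of 22 libraries from 11 mice was used as deposited: each file holds raw gene counts. Per the submitters' processing notes, FastQC, cutadapt, STAR, HTSeq and DESeq2 were used with GRCm39/mm39; versions and the strand setting are not given in the sources used here. Records outside genes were 29.1% to 40.3% per library and stayed out of library sizes. Identifiers were matched to GENCODE vM39 symbols (54749 of 55416; 0.0454% of counts unmatched).

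Counts were fitted with edgeR 4.0.16 (R 4.3.3; quasi-likelihood test, TMM, filterByExpr minimum count 10 and minimum total 15, all 4 groups in 1 fit) with Benjamini-Hochberg adjustment over 17366 genes and a threshold of 0.05. SE is the log2 fold change divided by the square root of F. Alternatives were RLE scaling, no filter, DESeq2 1.42.0, limma-voom (limma 3.58.1), the 2 groups alone, sex as a covariate, each library left out, and mouse as a block; libraries summed per mouse and the mean LEPR effect were added after the data were seen. The code was tested on simulated data.

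Both libraries of a mouse come from the same animal, by the labels. Their deviations from group means correlated at 0.04 to 0.66, and 10 of 11 LEPR+ libraries matched their own mouse best. The mice are separate animals; no 2 libraries were identical.

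The members and lists were chosen with earlier results of these data known. Named were all 10 members, called genes of the other lists (up to 3 per direction), the 2 most abundant of each, and the 5 genes most like each sum; genes given for an unadjusted p or as markers were chosen after their values were seen. One marker gene, and the marker sum it entered, are not reported here.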

Additional observations from a re-analysis of the deposited data

Results flagged for a closer look

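A library was flagged where its gap to the nearest other library of its group, on log2(TMM CPM + 0.5), was above Dixon's 95% critical value (0.829 for 4 libraries, 0.568 for 7). Of 36 pairs of a gene and a group, 16 were flagged, where chance flags about 1 in 20 for values with a normal spread; groups at or near 0 but for 1 library are flagged by construction. Prtn3 was low in the young LEPR+ library of mouse 3 (268 CPM, the others 399 to 421), and Mpo was low in the young LEPR- library of mouse 3 (0.036 CPM, the others 55.6 to 99.5). The LEPR- library of mouse 2 was alone with Ctsg (56 CPM), and that of mouse 4 with Ngp (234 CPM) and Lcn2 (5.09 CPM). In mouse 10, Ctsg stood out in the LEPR+ library (7.21 CPM) and the LEPR- library (7.98 CPM), and S100a9 in the LEPR- library (13.3 CPM). Smaller values that stood out in young LEPR+ cells were S100a8 in mouse 2 (5.24 CPM) and Camp in mouse 3 (4.26 CPM). In midage cells they were Ngp in the LEPR+ library of mouse 9 (2.55 CPM) and Ltf in the LEPR- library of mouse 9 (0.928 CPM). Single counts made up the rest: Elane and Ngp in young LEPR+ mouse 4 (0.0913 CPM each), Ctsg in young LEPR+ mouse 3 (0.0355 CPM) and Lcn2 in midage LEPR+ mouse 9 (0.0151 CPM).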

How the results depend on the processing

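In 846 recalculated log2 values of the 8 tested members, 790 kept their direction and their side of the threshold, 45 changed sign and 11 passed the threshold where the reported value did not. Prtn3 was higher in midage mice in every alternative (0.79 to 1.14 in LEPR+, 0.81 to 1.14 in LEPR- cells, edgeR, DESeq2 and limma-voom adjusted p from 0.0145 to 0.304 and from 0.00877 to 0.236), but was called by DESeq2 alone in each. The median of all genes also shifted towards midage. Under limma-voom that median was 0.72 in LEPR+ cells, near the 0.79 of Prtn3, and 1.54 in LEPR- cells, above the 0.90 of Prtn3. At this depth, levels under 0.0486 to 0.291 CPM, depending on the library, cannot be told from 0. The sums with the most abundant member of each set left out gave a mean log2 ratio of late to early of 2.14 in young LEPR+, -2.14 in midage LEPR+ and -0.87 in midage LEPR- libraries.

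DESeq2 called 3 members and 1944 genes in young cells, 1 gene in midage cells, 3 members and 1881 genes for age in LEPR+, 2 and 3513 for age in LEPR- cells, and 2 and 1421 for the difference of effects. limma-voom called 1 gene in midage cells, 707 and 2576 for age in LEPR+ and LEPR- cells, and 64 for the difference; it gave Mpo 0.03 and Ctsg 0.60 in midage cells, Ngp 0.30 for age in LEPR- cells and Prtn3 -0.12 for the difference. Without the filter 61, 13 and 239 genes were called in young cells and for age in LEPR+ and LEPR- cells, with Prtn3 at -0.01 for the difference; with the 2 groups alone 0 and 14 were called in young cells and for age in LEPR+ cells. Sex as a covariate gave Ctsg 0.26 and Camp 0.23 in midage cells and Camp 2.00 for age in LEPR+ cells. With mouse as a replicate block 25, 1 and 7 genes were called in young cells, midage cells and the difference, Ctsg was 0.72 in midage cells and Prtn3 -0.02 for the difference; the block changed the call of no member. The cause of these changes was not tested.

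Leaving out 1 library gave 82 to 186 genes in young cells, 12 to 112 for age in LEPR+, 280 to 1668 for age in LEPR- cells and 31 to 114 for the difference, with 0 to 1 members called for age in LEPR- cells (S100a8, without mouse 10). In young cells Ctsg ran from -11.92 to 1.82 and Ngp from -13.94 to 2.34. In midage cells Mpo ran from -1.60 to 2.97, Elane from -1.03 to 1.03 and Ctsg from -0.28 to 0.16. For age in LEPR+ cells S100a8 ran from -0.37 to 4.84 and Camp from -2.68 to 6.55. For age in LEPR- cells Ctsg ran from -4.21 to 8.14, Ngp from -6.93 to 9.67 and Camp from -5.01 to 0.33. For the difference of effects Prtn3 ran from -0.13 to 0.20, S100a9 from -0.46 to 2.76, Ctsg from -1.80 to 11.94, Ngp from -5.33 to 11.36 and Camp from -1.93 to 10.08. With libraries summed per mouse, leaving out 1 mouse moved Ctsg from -2.60 to 7.18, Ngp from -6.14 to 10.01 and Camp from -4.84 to 0.08.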
